A study of Mus musculus with 24 samples.

Results

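Tip cells are the endothelial cells that lead a growing capillary sprout. They extend filopodia toward VEGF, and they secrete guidance factors and the basement membrane on which the stalk behind them is laid. Sprouting of this kind vascularizes the newborn retina, and after a period of high oxygen that stops capillary growth it returns, in part as tufts, when the mouse is back in room air. The genes followed here were 8 that have been used to mark tip cells. They were chosen by name, with earlier results of these data known, and matched by Ensembl identifier in the count table of each tissue. They are Esm1 (endocan, a proteoglycan secreted by VEGF-stimulated endothelium), Apln (the peptide ligand apelin), Cxcr4 (the receptor of the chemokine CXCL12), Nid2 (nidogen-2, which links laminin to collagen IV), Col4a1 (a chain of collagen IV), Lama4 (the laminin chain of endothelial basement membrane), Mcam (the adhesion molecule CD146 of endothelium and mural cells) and Lad1 (ladinin-1, an anchoring filament protein known from epithelial basement membrane). All 8 were listed among the 36109 genes of the lung table and the 36595 of the retina table. All 8 also passed the filter on low counts, which left 16819 and 19173 genes to test.

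RNA sequencing had been done on whole lungs and retinas of newborn C57/B6 mice, 12 samples of each tissue, with 3 mice in each of 4 groups. WT mice and littermates homozygous for a CRISPR deletion in Gsdmd in every cell (GSDMD-KO), the gene of the pore-forming protein gasdermin D, breathed room air (RA) or hyperoxia (O2), which gives the groups WT-RA, WT-O2, KO-RA and KO-O2. For the lung, 85% or 21% oxygen was given from postnatal day 1 to 14 and tissue was taken on day 15, straight from the exposure. For the retina, mice in hyperoxia had 75% oxygen from day 7 to 12 and then recovered in room air, control mice stayed in room air from day 1 to 17, and retinas were taken on day 18. The tissues came from different mice and were compared only side by side. Levels below are CPM, a gene's counts scaled to the usual per-million library size after TMM. A gene "rose" or "fell" where edgeR's quasi-likelihood test gave an adjusted p under 0.1 over all genes tested, and ± is the SD over 3 mice. P-values measure the spread between these mice.

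Library totals ran from 28763661 to 29604254 counts in the lung and from 24863257 to 29093035 in the retina. Gsdmd itself was 32.1 to 42.3 CPM in the 6 WT lungs and 11.7 to 24.8 CPM in the 6 GSDMD-KO lungs, without overlap. In the retina it was near the limit of detection in both genotypes, 0.419 to 5.70 CPM in WT and 0.636 to 2.95 CPM in GSDMD-KO, so it did not check the genotype labels there. The lowest of the 12 was the library labelled WT-RA 2, and results are given without it where genotypes are compared. The labelled tissues held their markers: 6 lung epithelial genes summed to 20234 to 35185 CPM in the lung, and 8 photoreceptor and neuron genes to 38785 to 58210 CPM in the retina. Lens transcripts, from tissue next to the retina, were abundant in 3 room air libraries, with a sum of 12783 CPM for WT-RA 2, 42808 CPM for WT-RA 3 and 17034 CPM for KO-RA 3, against at most 225 CPM in the other retinas, and retina counts of changed members are also given without these libraries. Y-linked transcripts marked all 6 room air retinas as male but 2 of 6 hyperoxia retinas, and 2 of 6 room air lungs but 4 of 6 hyperoxia lungs, so sex was also fitted as a covariate. Liver transcripts summed to 157 CPM in lung KO-O2 1 and to at most 2.87 CPM in the other lungs.

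The members lie apart in the genome. In the GRCm38 assembly with GENCODE M21 annotation, Esm1 lies at chr13:113209659-113218098 and Lama4 at chr10:38965515-39110188, Nid2 at chr14:19751265-19811787, Mcam at chr9:44134469-44142727 and Lad1 at chr1:135818598-135833342, all on the plus strand. Apln lies at chrX:48025146-48034853, Cxcr4 at chr1:128588199-128592293 and Col4a1 at chr8:11198423-11312826, on the minus strand. All 8 are protein coding. The 250 bases before the start are shown for the 4 members that changed by at least 2-fold in both tissues of WT mice, since the results turn on them (RefSeq, GRCm38.p6, 5′ to 3′ on the strand of the gene). Capitals mark the core of the hypoxia-response element, ACGTG or GCGTG on either strand, which the HIF transcription factors are known to bind.
Esm1, chr13:113209409-113209658, plus strand: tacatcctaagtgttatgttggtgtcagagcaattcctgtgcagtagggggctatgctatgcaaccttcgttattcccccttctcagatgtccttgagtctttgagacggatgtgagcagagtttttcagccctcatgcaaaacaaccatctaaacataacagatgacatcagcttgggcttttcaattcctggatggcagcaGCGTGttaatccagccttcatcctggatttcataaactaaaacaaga
Apln, chrX:48034854-48035103, minus strand: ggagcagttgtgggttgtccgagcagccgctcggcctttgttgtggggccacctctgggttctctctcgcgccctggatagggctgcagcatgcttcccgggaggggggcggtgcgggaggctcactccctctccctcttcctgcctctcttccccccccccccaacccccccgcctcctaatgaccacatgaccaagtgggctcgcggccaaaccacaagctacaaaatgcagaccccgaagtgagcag
Cxcr4, chr1:128592300-128592549, minus strand: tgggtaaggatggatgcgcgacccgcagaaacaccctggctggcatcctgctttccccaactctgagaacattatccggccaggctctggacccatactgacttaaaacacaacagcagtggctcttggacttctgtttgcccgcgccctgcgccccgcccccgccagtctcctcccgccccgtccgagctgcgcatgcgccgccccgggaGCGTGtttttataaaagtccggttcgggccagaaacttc
Lad1, chr1:135818348-135818597, plus strand: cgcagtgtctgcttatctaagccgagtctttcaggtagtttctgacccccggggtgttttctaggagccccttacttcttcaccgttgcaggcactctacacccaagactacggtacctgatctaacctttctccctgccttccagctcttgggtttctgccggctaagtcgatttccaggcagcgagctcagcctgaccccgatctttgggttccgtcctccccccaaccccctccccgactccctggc
Esm1 holds 1 such core, starting 47 bases before the start, and Cxcr4 holds 1, starting 39 bases before it. The windows of Apln and Lad1 hold none. Of the other members, the window of Col4a1 holds 1 and that of Mcam none, and no promoter was matched for Nid2 or Lama4. The core occurs in 38.6% of the 32851 promoter windows of this length, so 3 of 6 is a description of letters only. The ETS core GGAAG, on either strand, occurs 3 times before Apln and once before Lad1 and is in 64.1% of all windows.

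In the retina every tip cell gene was higher after hyperoxia and recovery than in room air. In WT mice 6 of the 8 rose, all at least 2-fold: Esm1, Apln, Cxcr4, Lama4, Mcam and Lad1. Of all genes tested, 5.16% changed in this comparison, 3.11% rose and 1.77% rose by at least 2-fold. In GSDMD-KO mice 7 of 8 rose, all at least 2-fold, the same 6 and Col4a1, where 7.82% of all genes changed, 4.38% rose and 1.64% rose by at least 2-fold. None of the 8 overlapped between room air and hyperoxia in either genotype, a pattern that 12.1% of all genes showed upward in WT and 13.5% in GSDMD-KO. The median log2 difference of the members was 2.30 in WT and 1.96 in GSDMD-KO, beside 0.00092 and 0.00074 for all genes.

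**Figure D1:**
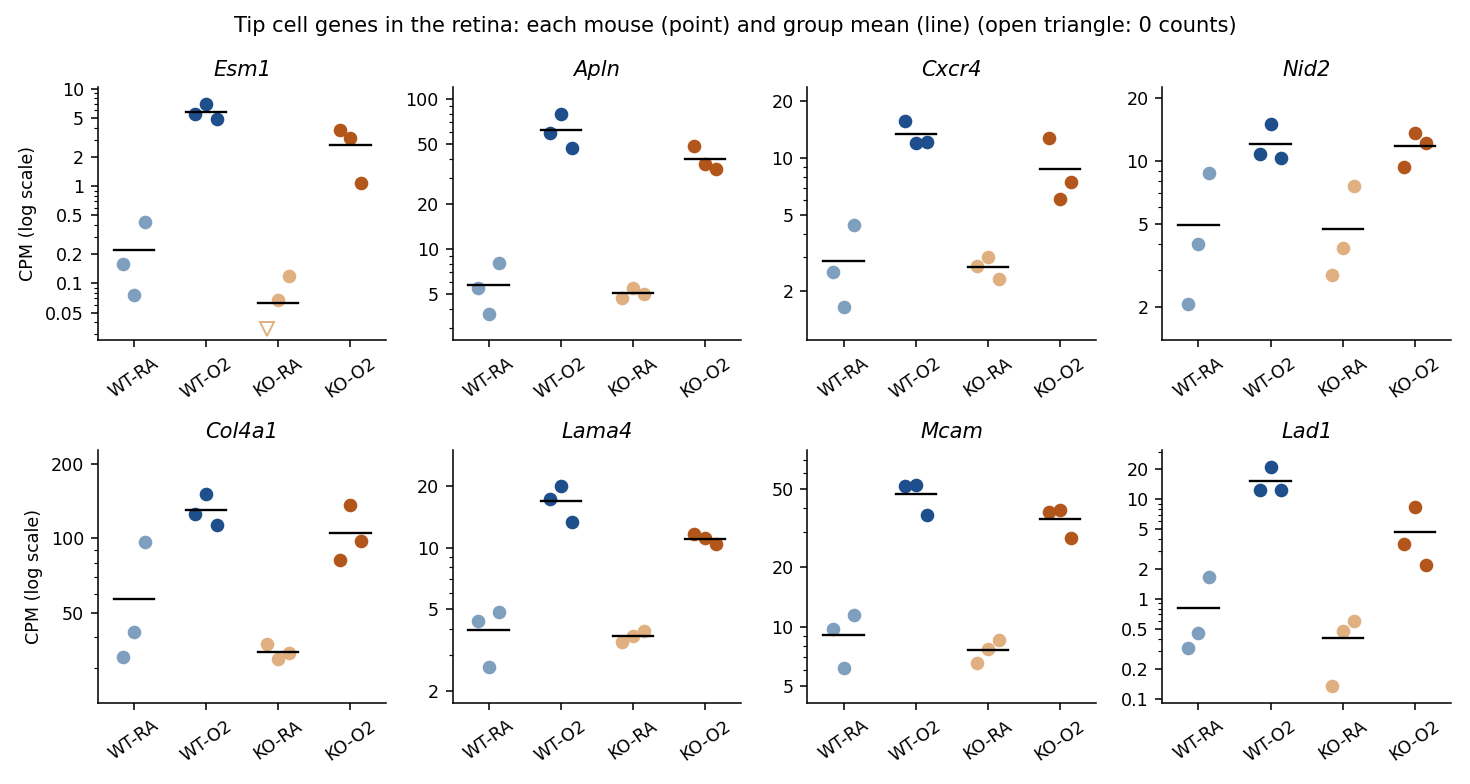
CPM of each tip cell gene in each retina (points, log axis), with the mean of the 3 mice of each group as a line and an open triangle for 0 counts. Every hyperoxia retina lies above every room air retina of its genotype for all 8 genes, and the KO-O2 points of Esm1, Lama4 and Lad1 lie below all WT-O2 points.

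Esm1 was almost absent from room air retinas. The 3 WT-RA mice had 4, 2 and 10 counts (0.160, 0.0762 and 0.428 CPM), and the 3 KO-RA mice 0, 2 and 3. After hyperoxia it reached 5.54, 6.92 and 4.90 CPM in WT-O2 and 3.75, 3.14 and 1.09 CPM in KO-O2. All 6 hyperoxia retinas stood above all 6 room air retinas. The edgeR estimate was a rise of 4.70 on the log2 scale in WT (SE 0.73, adjusted p = 0.00779) and 5.37 in GSDMD-KO (SE 0.81, adjusted p = 0.00732). Because the room air counts were so few, the ratio of summed CPM is the better guide to size: 27.2 in WT, from 16 against 510 counts (95% exact interval 16.6 to 47.9), and 44.8 in GSDMD-KO, from 5 against 232 counts (18.9 to 139). These intervals pool the mice of a group, take the rounded estimated counts as reads counted and cover counting error only.

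Apln, the ligand, gave the smallest p of the 8 in WT. It was 5.52, 3.70 and 8.09 CPM in WT-RA and 59.9, 79.96 and 46.9 CPM in WT-O2. In GSDMD-KO it was 4.73, 5.52 and 5.05 CPM in room air and 49.0, 36.7 and 34.1 CPM after hyperoxia. The groups were far apart in both genotypes, with a 10.8-fold rise in WT (log2 3.44, SE 0.28, adjusted p = 0.000729) and a 7.83-fold rise in GSDMD-KO (log2 2.97, SE 0.28, adjusted p = 0.00115).

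Cxcr4, the receptor, was 2.52, 1.64 and 4.45 CPM in WT-RA and 15.8, 12.1 and 12.2 CPM in WT-O2. In KO-RA it was 2.70, 3.03 and 2.30 CPM and in KO-O2 12.7, 6.12 and 7.53 CPM. It rose 4.66-fold in WT (log2 2.22, SE 0.36, adjusted p = 0.00913) and 3.28-fold in GSDMD-KO (log2 1.71, SE 0.35, adjusted p = 0.0246). With sex as a covariate the GSDMD-KO value was 1.61 with an adjusted p just over the threshold. Leukocytes are another source of Cxcr4. Of 12 leukocyte and microglia genes, 6 rose in WT and 7 in GSDMD-KO, and their summed level went from 64.2 to 88.1 CPM in WT-RA to 129 to 193 CPM in WT-O2, and from 61.5 to 77.1 CPM to 121 to 162 CPM in GSDMD-KO. Of 7 lymphocyte genes 0 rose in WT and 1 in GSDMD-KO, and their sum was 3.93 to 4.68 CPM in WT-RA, 5.89 to 9.36 CPM in WT-O2, 2.98 to 3.90 CPM in KO-RA and 5.22 to 5.98 CPM in KO-O2. The part of either list in the Cxcr4 difference was not tested.

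The matrix genes were less uniform. Lama4 was 4.4, 2.63 and 4.84 CPM in WT-RA and 17.2, 19.9 and 13.4 CPM in WT-O2. The GSDMD-KO retinas had 3.48, 3.73 and 3.93 CPM in room air and 11.6, 11.1 and 10.4 CPM after hyperoxia. Lama4 rose 4.26-fold in WT (log2 2.09, SE 0.22, adjusted p = 0.00118) and 2.97-fold in GSDMD-KO (log2 1.57, SE 0.22, adjusted p = 0.00492). Col4a1 was 33.3, 42.0 and 96.5 CPM in WT-RA and 125, 152 and 113 CPM in WT-O2, so that WT-RA 3 lay close to the hyperoxia group. Its WT difference was 1.18 on the log2 scale (SE 0.34) and missed the threshold (adjusted p = 0.107). In GSDMD-KO, Col4a1 was 37.7, 32.6 and 34.7 CPM in room air and 82.2, 136 and 97.6 CPM after hyperoxia, a 3.01-fold rise (log2 1.59, SE 0.35, adjusted p = 0.0350).

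Nid2 was 2.08, 4.00 and 8.78 CPM in WT-RA and 10.9, 15 and 10.4 CPM in WT-O2, with a log2 difference of 1.29 (SE 0.47, adjusted p = 0.184). Among KO-RA mice it was 2.84, 3.83 and 7.59 CPM and in KO-O2 9.33, 13.7 and 12.2 CPM, a log2 difference of 1.31 (SE 0.47, adjusted p = 0.148). The highest room air value of each genotype came from a lens-rich library, WT-RA 3 and KO-RA 3. The other lens-rich library, WT-RA 2, had 4.00 CPM. WT-RA 3 and KO-RA 3 also had the highest pigment epithelium sums of their groups, 150 and 487 CPM. The highest fibroblast sums were those of WT-RA 3 (35.6 CPM) and KO-RA 2 (32.1 CPM). The part of these tissues was not tested. Without the 3 lens-rich libraries all 8 members rose in both genotypes, as did 2.06% of all genes in WT and 2.13% in GSDMD-KO. Nid2 then differed by 2.53 in WT (adjusted p = 0.0426) and 1.82 in GSDMD-KO (adjusted p = 0.0278) on the log2 scale, and Col4a1 by 1.96 in WT (adjusted p = 0.0432). This leaves a single WT-RA library, which the fit takes to vary like the other groups. Leaving out WT-RA 3 alone also gave 8 of 8 in both genotypes, where 3.6% and 4.23% of all genes rose, with Col4a1 at 1.79 and Nid2 at 1.99 in WT, and leaving out WT-RA 1 brought Nid2 past the threshold in GSDMD-KO (adjusted p = 0.0861). The Col4a1 rise in GSDMD-KO was lost without KO-RA 1 (adjusted p = 0.103), KO-RA 3 (adjusted p = 0.107) or KO-O2 2 (adjusted p = 0.139).

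Mcam was 9.68, 6.14 and 11.4 CPM in WT-RA, 51.6, 52.5 and 36.8 CPM in WT-O2. The GSDMD-KO retinas had 6.56, 7.74 and 8.58 CPM in room air and 38.2, 39.0 and 28.1 CPM after hyperoxia. Mcam rose 5.17-fold in WT (log2 2.37, SE 0.23, adjusted p = 0.00104) and 4.60-fold in GSDMD-KO (log2 2.20, SE 0.23, adjusted p = 0.00216). Pericytes also carry Mcam. Of 9 pericyte genes 8 rose in WT and 7 in GSDMD-KO, and their sum went from 170 to 227 CPM in WT-RA to 568 to 642 CPM in WT-O2, and from 170 to 208 CPM to 437 to 545 CPM in GSDMD-KO. Their part was not tested.

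Lad1 was also low in room air retinas. It was 0.320, 0.457 and 1.67 CPM in WT-RA and 12.4, 20.8 and 12.4 CPM in WT-O2, an 18.7-fold rise (log2 4.23, SE 0.71, adjusted p = 0.0140). In KO-RA it was 0.135, 0.471 and 0.596 CPM and in KO-O2 3.54, 8.31 and 2.20 CPM, an 11.7-fold rise (log2 3.55, SE 0.73, adjusted p = 0.0262). Lad1 is known from epithelium. None of the 10 tested genes of a 12-gene epithelial list rose in the retina in either genotype, and 1 fell in GSDMD-KO. Of the genes tested from a cornea and conjunctiva list and from a lung epithelial list, none rose in WT, while 1 of 4 and 1 of 2 rose in GSDMD-KO, each at least 2-fold. The cornea and conjunctiva sum was 1.76 to 3.21 CPM in WT-RA, 1.65 to 3.00 CPM in WT-O2, 1.15 to 3.14 CPM in KO-RA and 3.37 to 11.3 CPM in KO-O2. The part of these genes in the rise of Lad1 was not tested. Across the 12 retinas Lad1 was the gene whose pattern was most like that of Esm1 among 15692 genes of at least 1 CPM, with a root mean square difference of 0.51 between centred log2 values, followed by Ndufa4l2 (0.59), a mitochondrial protein of pericytes, and Tnnt2 (0.64), a troponin subunit. Nearest to Apln were Adm (0.33), the vasodilator peptide adrenomedullin, Prnd (0.36), a prion-like protein, and Hsd17b2 (0.47), a steroid dehydrogenase. These likenesses are descriptions over libraries that share the exposure.

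Per kilobase of annotated exon, which allows levels to be set between genes, Col4a1 led in room air retinas with 7.68 ± 4.6 CPM per kilobase in WT-RA, followed by Mcam (2.71 ± 0.81), Apln (1.83 ± 0.70), Cxcr4 (1.59 ± 0.80), Nid2 (0.958 ± 0.67), Lama4 (0.328 ± 0.097), Lad1 (0.240 ± 0.22) and Esm1 (0.106 ± 0.088). No neighbours in this order differed beyond their SDs. In WT-O2 the order became Apln (19.8 ± 5.3), Col4a1 (17.4 ± 2.6), Mcam (14.02 ± 2.6), Cxcr4 (7.39 ± 1.2), Lad1 (4.47 ± 1.4), Esm1 (2.76 ± 0.49), Nid2 (2.33 ± 0.49) and Lama4 (1.40 ± 0.27). Apln, Col4a1 and Mcam overlapped within their SDs, as did Lad1 with Esm1 and Esm1 with Nid2. Apln had moved up 2 places and Lad1 and Esm1 had passed Nid2 and Lama4.

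The summed CPM of pan-endothelial genes was also higher after hyperoxia in these retinas. Of 15 pan-endothelial genes 11 rose in WT and 10 in GSDMD-KO, with none falling. Ecscr, an endothelial cell surface regulator, rose by 2.83 and 1.95 on the log2 scale, Pecam1, an adhesion molecule of endothelial junctions, by 1.24 and 0.80, and Cdh5, the cadherin of endothelial junctions, by 1.52 and 0.95. The summed level of the 15 genes was 149 to 190 CPM in WT-RA and 334 to 415 CPM in WT-O2, 154 to 189 CPM in KO-RA and 274 to 313 CPM in KO-O2. In RNA from whole tissue, more endothelial cells and more RNA per cell cannot be told apart. The median log2 difference of the 15 genes was 1.07 in WT and 0.80 in GSDMD-KO, lower than that of the members, and a difference between the lists was not tested.

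**Figure D2:**
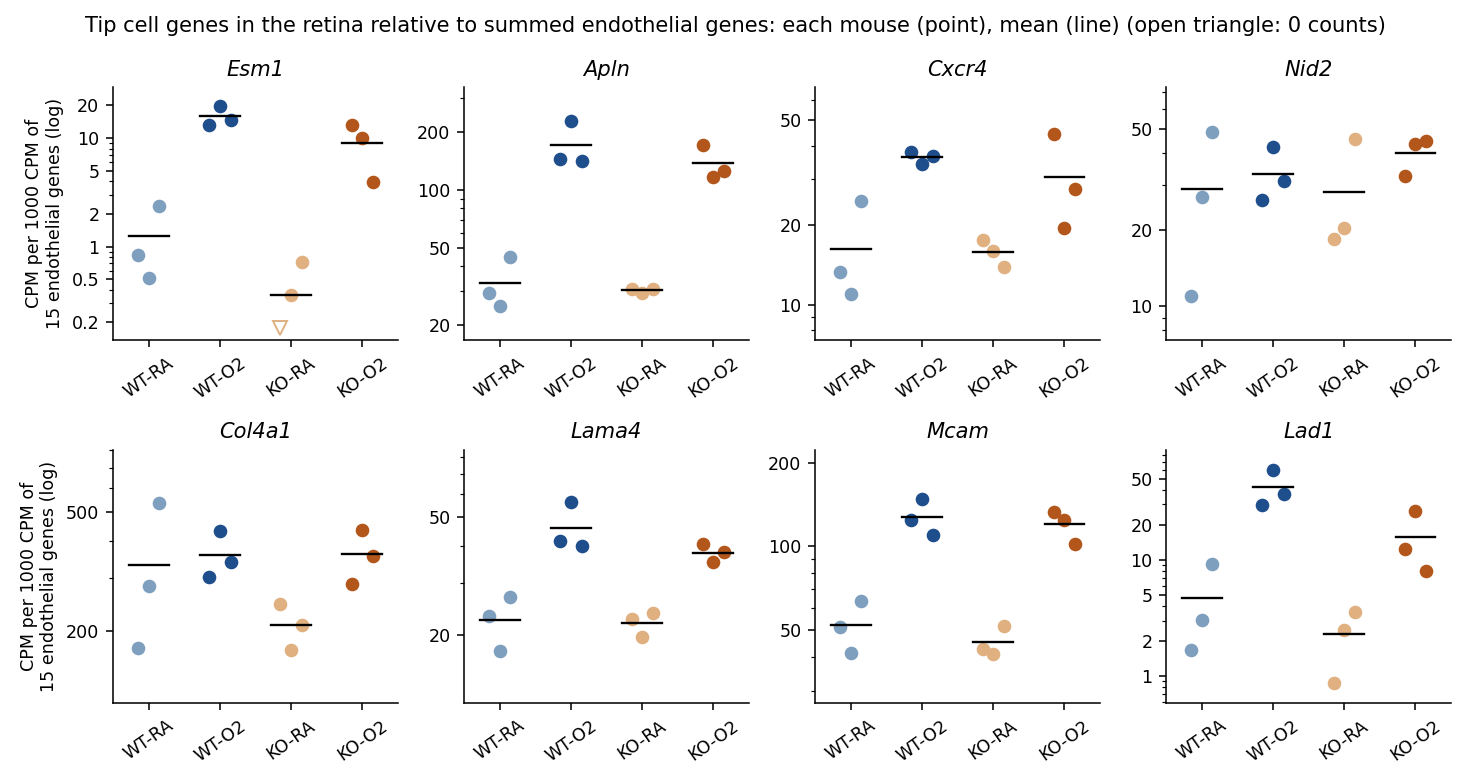
CPM of each tip cell gene per 1000 CPM of the 15 pan-endothelial genes summed, in each retina (points, log axis), with the group mean as a line and an open triangle for 0 counts. Hyperoxia retinas lie above room air retinas without overlap for 6 of 8 genes in WT and 7 of 8 in GSDMD-KO, a pattern that 1% and 1.46% of all genes show on this scale.

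Set against that sum, most of the tip cell genes stood higher after hyperoxia without overlap. Esm1 was 0.843, 0.512 and 2.38 CPM per 1000 endothelial CPM in WT-RA and 13.3, 19.6 and 14.7 in WT-O2. Apln was 29.1, 24.8 and 44.9 against 144, 227 and 141, and Lad1 was 1.69, 3.07 and 9.26 against 29.8, 59.1 and 37.2. In WT, Esm1, Apln, Cxcr4, Lama4, Mcam and Lad1 did not overlap between room air and hyperoxia on this scale, while Nid2 (11.0 to 48.7 against 26.1 to 42.5) and Col4a1 (176 to 535 against 301 to 430) did. In GSDMD-KO only Nid2 of the 8 overlapped (18.4 to 45.8 against 32.6 to 44.7). Of all genes, 1% in WT and 1.46% in GSDMD-KO were higher without overlap on this scale. No test was made on these ratios.

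Most other genes reported in tip cells were also higher after hyperoxia. Of 20, 15 rose in WT retinas and 13 in GSDMD-KO, and none fell. Their medians were 1.23 and 1.02 on the log2 scale. For the pan-endothelial genes the medians were 1.07 and 0.80, and for the members 2.30 and 1.96. A rise of these 20 genes beyond that of the endothelium was not tested. Adm rose by 3.72 in WT (adjusted p = 0.000194) and 3.09 in GSDMD-KO (adjusted p = 0.000351), Angpt2, the vessel-destabilizing ligand of TIE2, by 1.91 and 1.44, and Cd34, a sialomucin of sprouting endothelium, by 1.63 and 1.11. Dll4, the Notch ligand of tip cells, rose by 1.497 and 1.00. Kdr, the main VEGF receptor, rose by 0.52 in WT and was at -0.03 in GSDMD-KO (adjusted p = 0.907). By edgeR the interaction of genotype and exposure passed the threshold for 0 of the 20, but also for only 1 of all 19173 genes. At an unadjusted p under 0.05 there were 4 of the 20, against 10.6% of all genes.

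The partners that bind the members were examined next. Aplnr, the apelin receptor, was 2.64, 1.72 and 5.27 CPM in WT-RA and 10.4, 8.54 and 9.02 CPM in WT-O2, and rose by 1.54 on the log2 scale (SE 0.34, adjusted p = 0.0390), while in GSDMD-KO the difference of 1.01 missed the threshold (adjusted p = 0.118). Cxcl12, the ligand of Cxcr4, was at -0.18 in WT (adjusted p = 0.749) and -0.59 in GSDMD-KO (adjusted p = 0.179). Itga1, the collagen-binding integrin chain, rose by 1.76 and 0.77. In all, 4 of 14 ligand and receptor partners rose in WT and 2 in GSDMD-KO, with none falling. Of 20 other basement membrane genes 3 rose in WT (Lamb1, Lamc1 and Sparc) and 4 in GSDMD-KO (Col4a2, Lamb1, Agrn and Sparc). Of 12 HIF target genes 3 rose in each genotype, among them Vegfa, the growth factor that tip cells follow, by 1.25 and 1.00, and Egln3, an oxygen-sensing hydroxylase, by 1.70 and 1.62.

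Sex and exposure overlapped in the retinas, and with sex as a covariate 6 of 8 members rose in WT and 6 in GSDMD-KO, where 1.46% and 2.64% of all genes rose. Without the library labelled WT-RA 2 the counts stayed at 6 and 7, beside 1.1% and 3.85% of all genes.

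In the lung the 8 genes went in different directions. In WT mice 4 rose (Apln, Lad1, Col4a1 and Mcam), 2 fell (Cxcr4 and Esm1) and 2 did not pass the test (Nid2 and Lama4). In GSDMD-KO mice Apln, Lad1 and Col4a1 rose and Cxcr4 and Esm1 fell. Hyperoxia moved so much of the lung transcriptome that a count of this size is near the background: 49.2% of all genes changed in WT and 46.7% in GSDMD-KO, of which 24.5% and 23.3% of all genes rose. By at least 2-fold, 4 of 8 members changed in each genotype, against 11.6% and 10.6% of all genes. The groups did not overlap for 7 members in WT and 5 in GSDMD-KO, as for 49.8% and 52.4% of all genes.

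**Figure D3:**
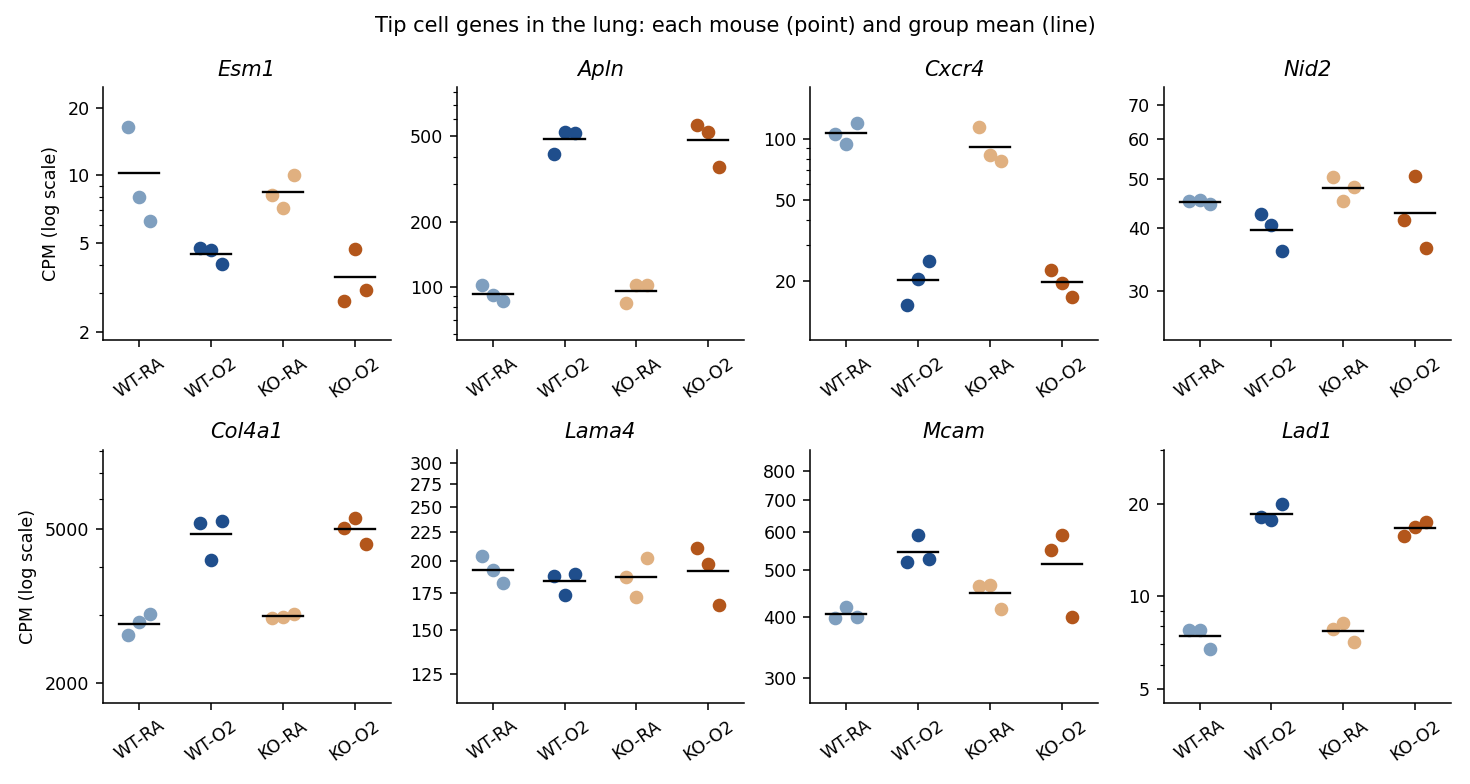
CPM of each tip cell gene in each lung (points, log axis), with the mean of the 3 mice of each group as a line. Apln and Lad1 are higher and Cxcr4 lower in hyperoxia in every lung of both genotypes, while Lama4 stays between 166 and 211 CPM throughout.

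Apln had the largest rise of the 8 in the lung. It was 102, 91.0 and 85.5 CPM in WT-RA and 411, 523 and 519 CPM in WT-O2. Among KO-RA mice it was 84.3, 102 and 101 CPM and in KO-O2 563, 525 and 360 CPM. The lowest hyperoxia lung stood more than 3-fold above the highest room air lung. The rise was 5.21-fold in WT (log2 2.38, SE 0.16, adjusted p = 1.06e-07) and 5.04-fold in GSDMD-KO (log2 2.33, SE 0.16, adjusted p = 1.79e-07). Its receptor went the other way: Aplnr was 205, 235 and 244 CPM in WT-RA and 26.2, 23.0 and 16.7 CPM in WT-O2, a log2 difference of -3.38 (adjusted p = 4.61e-07), and it fell by 3.06 in GSDMD-KO (adjusted p = 1.09e-06). Nearest to Apln across the 12 lungs, among 14681 genes, were Bdkrb2, the bradykinin receptor (0.16), Slc19a2, a thiamine transporter (0.16), and Zmat3, a p53 target (0.17), as root mean square differences of centred log2 values.

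Cxcr4 fell most. It was 106, 93.9 and 120 CPM in WT-RA and 15.3, 20.5 and 24.99 CPM in WT-O2. In KO-RA it was 114, 83.0 and 78.0 CPM and in KO-O2 22.8, 19.5 and 16.8 CPM. Its level after hyperoxia was 0.190 of that in room air in WT (log2 -2.39, SE 0.19, adjusted p = 1.67e-06) and 0.215 in GSDMD-KO (log2 -2.22, SE 0.19, adjusted p = 3.47e-06). Its ligand Cxcl12 fell by 0.66 and 0.69, and Ackr3, the atypical receptor that scavenges CXCL12, rose by 1.75 and 1.64. Lymphocytes carry much Cxcr4. All 7 lymphocyte genes fell in WT and 6 of 7 in GSDMD-KO, with sums of 208 to 216 CPM in WT-RA, 55.9 to 61.7 CPM in WT-O2, 134 to 237 CPM in KO-RA and 51.5 to 60.5 CPM in KO-O2. Of the 12 leukocyte and microglia genes 7 rose and 3 fell in WT, 9 rose and 3 fell in GSDMD-KO, and their sum was 668 to 709 CPM in WT-RA, 740 to 864 CPM in WT-O2, 498 to 578 CPM in KO-RA and 668 to 776 CPM in KO-O2. The part of these cells in the fall of Cxcr4 was not tested.

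Esm1 was 16.5, 8.01 and 6.29 CPM in WT-RA and 4.74, 4.68 and 4.05 CPM in WT-O2. Among KO-RA mice it was 8.20, 7.17 and 10.0 CPM and in KO-O2 2.76, 4.71 and 3.08 CPM. WT-RA 1 stood above the other lungs, yet no room air lung of either genotype was as low as any hyperoxia lung. Esm1 fell by 1.19 on the log2 scale in WT (SE 0.31, adjusted p = 0.00863) and by 1.27 in GSDMD-KO (SE 0.32, adjusted p = 0.00730). Without WT-RA 1 the WT value was -0.67 (adjusted p = 0.0298), past the test but short of 2-fold. Among the genes nearest to Esm1 in pattern were Slc43a3 (0.23) and Tll1 (0.26).

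Lad1 was 7.78, 7.81 and 6.74 CPM in WT-RA and 18.1, 17.7 and 20.03 CPM in WT-O2, and 7.82, 8.17 and 7.09 CPM in KO-RA and 15.7, 16.9 and 17.5 CPM in KO-O2. The 2 exposures were well apart, with a 2.50-fold rise in WT (log2 1.32, SE 0.11, adjusted p = 3.63e-07) and a 2.17-fold rise in GSDMD-KO (log2 1.12, SE 0.11, adjusted p = 2.17e-06). The 12-gene epithelial list moved with it: 11 of 12 genes rose in WT and 10 in GSDMD-KO, and their sum went from 904 to 1018 CPM in WT-RA to 1359 to 1463 CPM in WT-O2 and from 946 to 984 CPM in KO-RA to 1350 to 1551 CPM in KO-O2. The lung epithelial list went the other way, with 0 of 6 genes rising and 4 falling in each genotype, and its sum was 30804 to 35077 CPM in WT-RA, 22692 to 26156 CPM in WT-O2, 29931 to 35185 CPM in KO-RA and 20234 to 23831 CPM in KO-O2. The part of either list in the rise of Lad1 was not tested.

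Col4a1, the most abundant member, was 2659, 2874 and 3010 CPM in WT-RA and 5201, 4175 and 5245 CPM in WT-O2. In KO-RA it was 2940, 2963 and 3027 CPM and in KO-O2 5059, 5364 and 4583 CPM. It rose 1.71-fold in WT (log2 0.78, SE 0.10, adjusted p = 4.21e-05) and 1.68-fold in GSDMD-KO (log2 0.75, SE 0.10, adjusted p = 6.35e-05). Of the 20 other basement membrane genes 16 rose in WT and 18 in GSDMD-KO, and Lamc3 alone fell, by 1.34 and 1.11. Col4a2, the partner chain of Col4a1 in the collagen IV trimer, rose by 0.86 and 0.87, and Col18a1, the precursor of endostatin, by 2.23 and 1.86. Of 6 fibroblast genes 4 rose and 1 fell in each genotype, while their sums overlapped between room air and hyperoxia. Their part in the rise of Col4a1 was not tested.

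The other matrix members did not follow. Lama4 ranged from 183 to 204 CPM in WT-RA and from 174 to 189 CPM in WT-O2, with overlapping groups and a log2 difference of -0.07 (95% interval -0.27 to 0.13), and of 0.03 (-0.17 to 0.24) in GSDMD-KO. Nid2 was 45.4, 45.5 and 44.7 CPM in WT-RA and 42.6, 40.5 and 36.0 CPM in WT-O2. The groups were apart, but the log2 difference was only -0.19 (95% interval -0.41 to 0.04, adjusted p = 0.176), and in GSDMD-KO it was -0.16 (adjusted p = 0.246) with overlapping groups. Without KO-O2 2 the latter was -0.29 with an adjusted p of 0.0355. Mcam was 399, 419 and 401 CPM in WT-RA and 521, 591 and 527 CPM in WT-O2, a 1.34-fold rise (log2 0.43, SE 0.12, adjusted p = 0.0102). In GSDMD-KO it was 464, 467 and 416 CPM in room air and 551, 591 and 400 CPM in hyperoxia. The difference was 0.20 (adjusted p = 0.215), and 0.34 (adjusted p = 0.0110) without KO-O2 3, its lowest hyperoxia lung. Of the 9 pericyte genes 2 rose and 5 fell in WT lungs, and 2 rose and 7 fell in GSDMD-KO. Their sum was 903 to 1084 CPM in WT-RA, 626 to 705 CPM in WT-O2, 870 to 958 CPM in KO-RA and 664 to 752 CPM in KO-O2. Their part in the Mcam differences was not tested.

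Per kilobase of exon the lung order in WT-RA was Col4a1 (382 ± 24 CPM per kilobase), Mcam (121 ± 3.3), Cxcr4 (58.9 ± 7.1), Apln (29.5 ± 2.7), Lama4 (16.0 ± 0.88), Nid2 (8.73 ± 0.086), Esm1 (4.89 ± 2.6) and Lad1 (2.19 ± 0.18), each apart from its neighbours beyond the SDs except Esm1 and Lad1. In WT-O2, Apln (154 ± 20) had come level with Mcam (163 ± 12), Cxcr4 had dropped to 11.2 ± 2.7, below Lama4 (15.2 ± 0.71), and Lad1 (5.47 ± 0.37) stood above Esm1 (2.14 ± 0.18).

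The summed CPM of the pan-endothelial genes was lower in hyperoxia lungs. In RNA from whole tissue, cell number and RNA per cell cannot be told apart. Of the 15 pan-endothelial genes 10 fell and 3 rose in WT, and 9 fell and 1 rose in GSDMD-KO. Tek, the TIE2 receptor, fell by 2.47 and 2.14 on the log2 scale and Sox17, an arterial transcription factor, was at -1.63 and -1.74, while Mmrn2, an endothelial matrix protein, rose by 1.82 and 1.91. The list summed to 6163 to 6716 CPM in WT-RA and 4485 to 5045 CPM in WT-O2, and to 5836 to 6201 CPM in KO-RA and 4170 to 5178 CPM in KO-O2. Per 1000 CPM of this sum, Cxcr4 was lower in hyperoxia without overlap in both genotypes (15.2 to 19.1 against 3.03 to 5.09 in WT), Apln, Col4a1, Lad1, Lama4 and Mcam were higher without overlap in both, and Esm1 (1.01 to 2.45 against 0.825 to 1.04 in WT) overlapped in WT but not in GSDMD-KO. Nid2 was higher on this scale, 7.33 to 9.04 in WT-O2 against 6.76 to 7.39 in WT-RA, with overlap, and 8.60 to 9.79 in KO-O2 against 7.29 to 8.57 in KO-RA, without overlap. These counts are near the background, since on this scale 55% of all genes were higher and 8.47% lower without overlap in WT, and 49% and 8.64% in GSDMD-KO. Of the 20 other tip cell genes 6 rose and 7 fell in WT, and 6 rose and 8 fell in GSDMD-KO. These counts too are near the background, since 24.5% of all genes rose and 24.7% fell in WT, and 23.3% and 23.4% in GSDMD-KO. Angpt2 rose by 1.77 and 1.90, whereas Clec14a, an endothelial lectin, fell by 1.90 and 1.47 and Ednrb, an endothelin receptor, by 2.00 and 1.51.

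**Figure D4:**
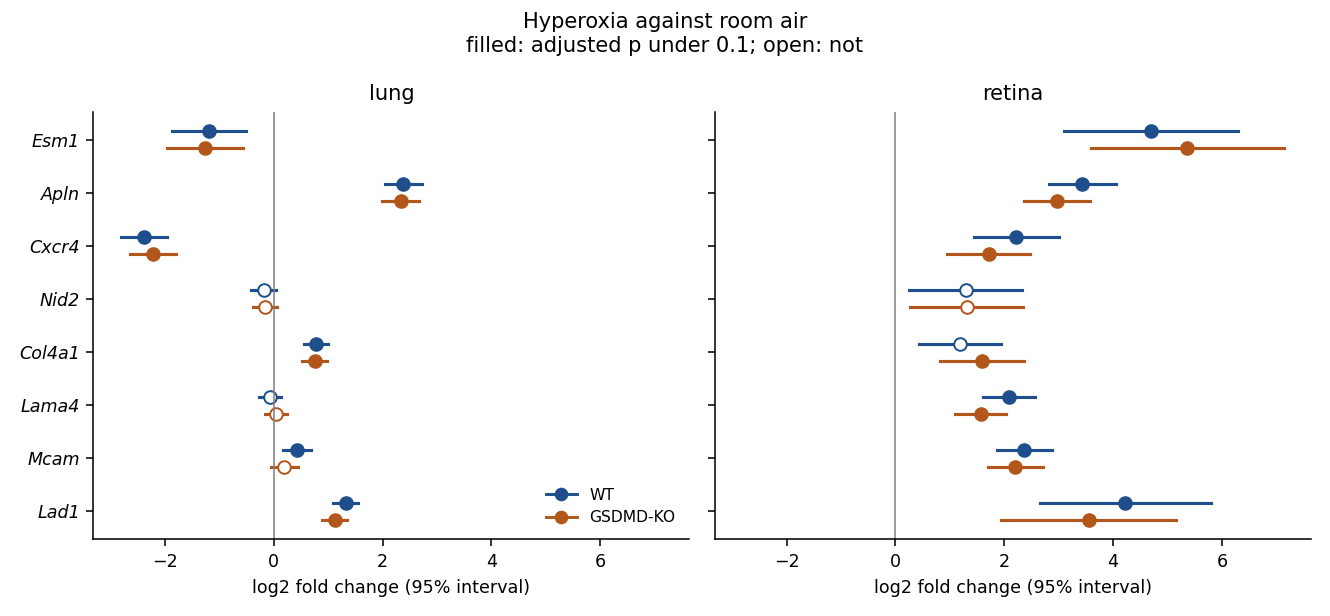
Log2 fold change of hyperoxia against room air for each tip cell gene in the lung and the retina, with the 95% interval as a bar, in WT (blue) and GSDMD-KO (orange). Filled points have an adjusted p under 0.1, the retina points all lie above 0, and Esm1 and Cxcr4 lie on opposite sides of 0 in the 2 tissues.

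The next question was whether loss of GSDMD changed these levels under hyperoxia. By edgeR's adjusted p, 0 of 8 members differed between KO-O2 and WT-O2 in either tissue, and DESeq2 also gave 0. DESeq2 called 404 genes higher and 561 lower of 17010 in the retina, and 45 higher and 43 lower of 20092 in the lung. By edgeR, 1.27% of all genes tested changed in the retina and 0.0416% in the lung. In the retina all 8 estimates were nonetheless below 0: -1.70 for Lad1 (95% interval -3.07 to -0.33), -1.12 for Esm1 (-2.44 to 0.19), -0.64 for Apln (-1.19 to -0.09), -0.61 for Lama4 (-1.06 to -0.16), -0.60 for Cxcr4 (-1.34 to 0.13), -0.42 for Mcam (-0.90 to 0.06), -0.30 for Col4a1 (-1.05 to 0.44) and -0.04 for Nid2 (-1.04 to 0.96) on the log2 scale. Their adjusted p-values ran from 0.241 to 0.991. At an unadjusted p under 0.05 there were 3, Lama4, Lad1 and Apln, against 12.6% of all genes, and 3 were lower without overlap, Esm1, Lama4 and Lad1, against 9.86% of all genes. The intervals of Lad1 and Esm1 span more than 2 log2 units, so for these genes only large differences could have been detected with 3 mice per group.

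**Figure D5:**
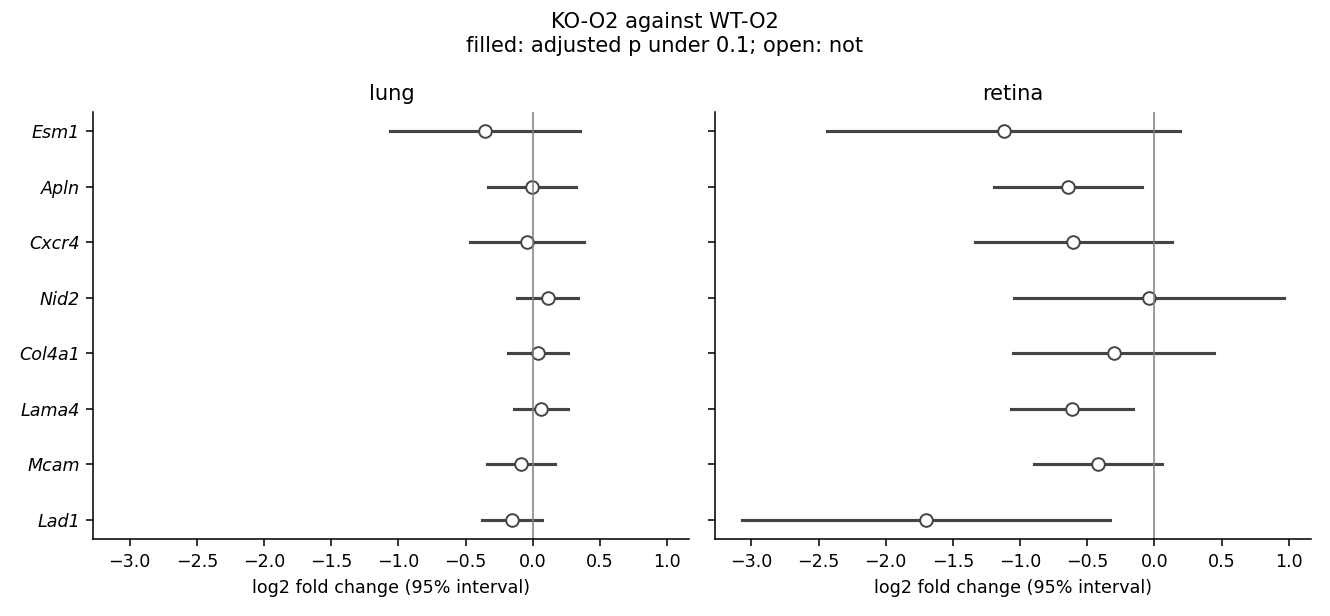
Log2 fold change of KO-O2 against WT-O2 for each tip cell gene, with the 95% interval as a bar. No point is filled, since none has an adjusted p under 0.1. The lung estimates lie between -0.35 and 0.11, and all 8 retina estimates lie below 0.

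Summed levels of the vessel wall and of dividing cells were also lower in KO-O2 retinas. The endothelial sum was 274 to 313 CPM against 334 to 415 CPM in WT-O2, the pericyte sum 437 to 545 CPM against 568 to 642 CPM, and the sum of 7 proliferation genes 10.4 to 15.8 CPM against 21.7 to 33.2 CPM, each without overlap, although only 1 of the 15 endothelial genes and none of the pericyte or proliferation genes fell in the test. Erythroid transcripts stood lower too, at 370 to 429 CPM in KO-O2 against 983 to 1552 CPM in WT-O2, and 4 of the 5 tested fell. Other lists also stood apart without overlap. The 20 other tip cell genes summed to 264 to 311 CPM in KO-O2 against 317 to 387 CPM in WT-O2. Of these 20, 0 passed the adjusted threshold in edgeR, as 1.27% of all genes did. An unadjusted edgeR p under 0.05 was found for 9, against 12.6% of all genes, and 10 did not overlap, against 19.9%. The photoreceptor and neuron sum was lower, at 38785 to 45040 CPM in KO-O2 against 47066 to 53284 CPM in WT-O2. The sums of retinal glia (2974 to 3229 against 2432 to 2789 CPM), of the 12-gene epithelial list (137 to 167 against 93.2 to 129 CPM), of the lung epithelial list (7.74 to 9.74 against 5.07 to 6.77 CPM) and of the cornea and conjunctiva list (3.37 to 11.3 against 1.65 to 3.00 CPM) were higher. The part of these genes in the members' differences was not tested. Per 1000 endothelial CPM, Lad1 (8.05 to 26.5 against 29.8 to 59.1) and Esm1 (3.97 to 13.1 against 13.3 to 19.6) remained lower in KO-O2 without overlap and the other 6 overlapped, where 1.86% of all genes were lower without overlap. By Y-linked transcripts each group held 1 male mouse. The lens-rich libraries are all from room air, so leaving them out removes no KO-O2 or WT-O2 sample and cannot check this comparison.

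In the lung, KO-O2 and WT-O2 were close. The largest differences were those of Esm1 (-0.35, 95% interval -1.06 to 0.35) and Lad1 (-0.16, -0.38 to 0.07), and the intervals of the other 6 lay within -0.46 and 0.38. Of the 8, 1 did not overlap (Lad1, 15.7 to 17.5 CPM in KO-O2 against 17.7 to 20.03 CPM in WT-O2), as for 12.2% of all genes. No member had an unadjusted edgeR p under 0.05 in this comparison, against 6.21% of all genes. Sex went with genotype in the lung: by Y-linked transcripts 3 KO-O2 and 1 WT-O2 lungs were male, and 5 of 6 GSDMD-KO lungs against 1 of 6 WT lungs in all. With sex as a covariate 0 of 8 members differed between KO-O2 and WT-O2, as between KO-RA and WT-RA. Of all 16819 genes tested 2 and 0 did, so this fit could show little about genotype. Erythroid transcripts summed to 5970 to 29928 CPM in KO-O2 lungs and 2920 to 4152 CPM in WT-O2 lungs.

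In room air the genotypes did not differ past the threshold for any member. Between KO-RA and WT-RA, DESeq2 gave 0 of 8 in each tissue. It called 159 genes higher and 264 lower of 16631 in the lung, and 321 higher and 410 lower of 13941 in the retina. By edgeR 0 of 8 changed in the lung, where 0.488% of all genes did. In the retina edgeR also gave 0 of 8, where 0.00522% of all genes changed. No member had an unadjusted edgeR p under 0.05 in either tissue. In the lung the estimates ran from -0.28 (Esm1) to 0.14 (Mcam). In the retina Esm1 (-1.79, 95% interval -3.69 to 0.12) and Lad1 (-1.02, -2.67 to 0.63) rest on a few counts, and Col4a1 (-0.71, -1.47 to 0.05) rests on WT-RA 3. The retina comparison also stands on the library labelled WT-RA 2, whose Gsdmd level was the lowest of all. Without it 0 of 8 members changed, but so did 0 of all 20033 genes tested, so this count tells nothing of the members.

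The interaction asks whether the response to hyperoxia itself differed between genotypes. By DESeq2 it passed the threshold for 0 of 8 members in each tissue. Of 14170 lung genes it passed for 61 above 0 and 49 below. Of 18972 retina genes it passed for 291 above 0 and 256 below. By edgeR it passed for 0 of 8 in the lung and 0 of 8 in the retina, where 0.00595% and 0.00522% of all genes did. The members had no unadjusted edgeR p under 0.05. In the retina the difference of responses, GSDMD-KO minus WT, was -0.52 for Lama4 (95% interval -1.18 to 0.13), -0.47 for Apln (-1.28 to 0.35) and 0.67 for Esm1 (-1.50 to 2.84). In the lung it lay between -0.23 (Mcam) and 0.18 (Cxcr4). In the retina the interval lay within 1 log2 unit of 0 on both sides for Mcam alone (-0.86 to 0.53). Without the library labelled WT-RA 2 the interaction again passed the threshold for 0 of 8, beside 1 of 20033 genes tested.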

How the data were processed

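Libraries from 12 lungs and 12 retinas were quantified by the authors with kallisto and imported with tximport after FastQC, and 1 table of estimated counts (expected counts) per gene was deposited for each tissue. Of the values above 0, 55.8% were nearly whole numbers in the lung table and 2.2% in the retina table. The settings and versions are not given in the sources used here. The labels name mm10, while the paper's supplement names a GRCm39 index, and coordinates here are from GENCODE M21 on GRCm38.

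Counts were rounded and tested per tissue, each normalized separately, in edgeR 4.0.16 (limma 3.58.1, R 4.3.3): filterByExpr by group, TMM, robust quasi-likelihood fit of all 12 samples, with 5 contrasts. P-values were adjusted by the Benjamini-Hochberg method across every gene tested in that contrast. A change needed an adjusted p under 0.1, and a change of at least 2-fold also p under 0.05. The fit was tested on simulated counts. Groups came from the labels, where replicates carry no shared number. Likeness between genes was the root mean square difference of centred log2(CPM + 0.1) over 12 libraries.

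The members and lists were chosen with earlier results of these data known. All 8 members and any gene of the 3 partner lists could be named, at most 3 genes of every other list in a contrast (those with the smallest p), and the 3 genes nearest to Apln and Esm1. Single-gene results for 2 genes are not reported here. Alternatives were RLE scaling, DESeq2 1.42.0, no filter, only the groups compared, sex as a covariate, a 1.5-fold threshold and each sample left out. Columns of the authors' comparisons were not used.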

Additional observations from a re-analysis of the deposited data

Results flagged for a closer look

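Several genes moved in opposite directions under hyperoxia in the lung and the retina, with groups that did not overlap in either tissue. The difference between tissues was not tested, since the tissues came from different mice, exposures and ages and were normalized separately. Of 15594 genes tested in both tissues, 7.08% did so in WT and 7.21% in GSDMD-KO. Besides the members, the whole lists of other tip cell genes, ligands and receptors, and basement membrane genes were examined, and 10 genes of other lists only because they are named above. Values are log2 differences, lung first and retina second.

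In WT mice 3 of 8 members did so: Esm1 (-1.19 and 4.70), Cxcr4 (-2.39 and 2.22) and Nid2 (-0.19 and 1.29, neither past the threshold). So did 8 of 53 genes of the whole lists. Among tip cell genes they were Plvap (-1.07 and 0.53), Igfbp3 (-1.07 and 1.601), Trp53i11 (-0.70 and 1.28), Clec14a (-1.90 and 1.52) and Ets1 (-1.11 and 1.35). Among receptors they were Aplnr (-3.38 and 1.54), Itga1 (-0.95 and 1.76) and Itga6 (-0.40 and 0.53). Of the 10 genes named from other lists 3 did so, the pan-endothelial Ecscr (-0.26 and 2.83), Pecam1 (-0.36 and 1.24) and Cdh5 (-0.22 and 1.52). Plvap and Itga6 missed the threshold in the retina and Cdh5 in the lung.

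In GSDMD-KO mice 2 of 8 members did so, Esm1 (-1.27 and 5.37) and Cxcr4 (-2.22 and 1.71), and 9 of 53 genes of the whole lists. These were Plvap (-1.17 and 1.03), Igfbp3 (-1.21 and 2.38), Rgcc (-0.86 and 0.49), Trp53i11 (-0.89 and 1.05), Clec14a (-1.47 and 1.49), Ets1 (-0.82 and 0.72), Aplnr (-3.06 and 1.01), Itga1 (-0.67 and 0.77) and Itga6 (-0.69 and 0.47). So did 3 of the 10 named from other lists, Ecscr (-0.31 and 1.95), Pecam1 (-0.27 and 0.80) and Vegfa (-0.28 and 1.00). Rgcc, Ets1, Aplnr and Itga6 missed the threshold in the retina.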

How the results depend on the processing

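With 3 mice per group and RNA from whole tissue, small differences between genotypes could not be detected, and room air retinas held 2 to 10 counts of Esm1 in WT and 0 to 3 in GSDMD-KO. All 321 alternatives of the counts of members stayed within 1.5 times the reported count. Of 1383 alternatives of single values, 1306 kept their direction and side of the threshold, 61 changed sign while past the threshold in neither fit, 12 passed it newly, 4 lost it and 0 reversed. Members that changed in the retina numbered 6 in WT and 7 in GSDMD-KO, 8 and 8 with DESeq2 (which called 5.36% and 7.42% of all genes higher), 6 and 6 with sex as a covariate, and 6 to 8 in both when single mice were left out. Leaving out the lens-rich libraries, an alternative chosen after seeing the data, gave 8 and 8, where 2.06% and 2.13% of all genes rose. The causes were not tested. No paired analysis was possible because the labels give no replicate numbers shared between groups.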
